A study of Mus musculus with 3 samples.

Results

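Proglucagon (Gcg), its receptor Gcgr, the incretin receptors Glp1r and Gipr, and the peptidase Dpp4 were described across cell types of isolated mouse islets of Langerhans. These 5 genes were taken by name, and all 5 are rows of both deposited tables, which list 16157 and 32285 genes. All mice carried Ngn3-CreERT and R26-CAG-TdTomato, were treated with tamoxifen and were taken 10 days later. Ngn3 is Neurog3, a transcription factor of endocrine progenitors; its CreERT transgene, once tamoxifen is given, turns on the red protein TdTomato in the cells that express it and in their progeny. No untreated or Cre-negative sample was analysed here, and the labels give no age or sex. The labels name 6 mice and 3 samples in 1 group. Replicate 1 is library 1; replicates 2 and 3, each from 2 pooled mice, share a joint table whose columns no label assigns to a sample, so 2 libraries were compared.

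Gcg encodes a prohormone. Alpha cells cut it with the convertase Pcsk2 to glucagon, which raises blood glucose, whereas intestinal L cells cut it with Pcsk1 to the glucagon-like peptides GLP-1 and GLP-2. GLP-1 and GIP are incretins, gut hormones that raise insulin secretion when glucose is high. Gcgr, Glp1r and Gipr are related receptors of glucagon, GLP-1 and GIP that signal mainly through the G protein Gs and cyclic AMP, and Dpp4 is a membrane peptidase that removes the N-terminal dipeptide of GLP-1 and GIP.

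Cells were classed by hormone transcripts, as unique molecular identifiers (UMIs, each standing for a captured transcript) per 10000 UMIs of the cell. Alpha, delta and PP cells had at least 200 UMIs per 10000 of Gcg, Sst (somatostatin) or Ppy (pancreatic polypeptide), beta cells at least 3000 of Ins1 and Ins2, and no other hormone past its threshold. Non-endocrine cells passed no hormone threshold and held at least 3 markers of another cell type. There were 926 alpha, 230 delta, 236 PP, 7018 beta and 1369 non-endocrine cells in the joint table, and library 1 gave 104, 25, 18, 468 and 107 cells of the same classes. A further 1079 cells of the joint table and 98 of library 1 passed more than 1 hormone threshold and were kept apart.

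Transcripts that the class rule did not use went with the names. The alpha transcription factor Irx1 stood at 98.1 CPM (UMIs per 1000000 UMIs) in alpha cells and 0.2 CPM in beta cells of the joint table. Hhex, a delta-cell factor, stood at 220 CPM in delta and 0.9 CPM in beta cells, and Mafa, a beta-cell factor, at 37.3 CPM in alpha and 443 CPM in beta cells. Of the PP-cell markers, Tspan8 stood at 371 CPM in delta, 522 CPM in PP and 10.4 CPM in beta cells, whereas Fxyd6 was highest in delta cells, at 203 CPM, with 37.2 CPM in PP and 42.2 CPM in beta cells. The joint table holds 13042 distinct cells after 3008 copied columns were dropped, in 3 barcode blocks that serve here as values and not as replicates. Median depth there was 7682.5 UMIs in alpha, 5505 in delta, 12502.5 in PP, 19956.5 in beta and 2954 in non-endocrine cells. Library 1 shared 5, 1 and 0 barcodes with the 3 blocks, and pairs of blocks shared 6, 4 and 4. Insulin transcripts were found in cells of every class, with 467025 UMIs among the joint table's non-endocrine cells, and the level of each gene is therefore also given per 10000 insulin UMIs of the same cells. Insulin also sets the beta class and is bounded in the others. This ratio therefore tends to be higher outside the beta class for any gene not confined to beta cells, and it is a description.

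Gcg lies on chromosome 2 of the GRCm38 (mm10) build, from 62474530 to 62483650 on the minus strand, and its transcript Gcg-201 has 6 exons and 180 codons. Dpp4, which acts on a product of Gcg, is its neighbour, at 62330073 to 62412231 on the same strand. The 2 genes are 62298 bases apart with no other protein-coding gene between them. Glucagon, GLP-1 and GLP-2 are coded in exons 3, 4 and 5. The first 15 codons of each, from the reference annotation of that build, are shown because the N-terminal dipeptide is where Dpp4 cuts. Capitals mark the codons of the first 2 residues, which are histidine and serine in glucagon and histidine and alanine in both glucagon-like peptides; Dpp4 prefers proline or alanine at the second residue.
glucagon: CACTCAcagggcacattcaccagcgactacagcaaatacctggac
GLP-1: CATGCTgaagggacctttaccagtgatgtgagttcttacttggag
GLP-2: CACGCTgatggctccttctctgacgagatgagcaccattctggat
In the order above they lie at chr2:62478608-62478652, chr2:62476880-62476924 and chr2:62475772-62475816 on the minus strand. A 3-prime UMI count of Gcg gives the amount of the shared messenger, not which of these peptides a cell makes.

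Gcg transcript defined the alpha class, so its levels between classes are a description. Alpha cells held 286898 CPM (joint table) and 338336 CPM (library 1). Within the alpha class, the median was 2813 UMIs per 10000 in the joint table, with the 10th to 90th percentiles at 1377 and 3720. In library 1 the median was 3142, with percentiles at 932 and 4416. The lower tail of the alpha class thus reached further down in library 1.

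Outside the alpha class Gcg was still detected in at least 94.4% of cells of every class, at a far lower level. In the joint table the median per 10000 UMIs was 7.35 in delta, 4.68 in PP, 2.72 in beta and 9.78 in non-endocrine cells. In library 1 it was 4.58 in delta, 3.55 in PP, 1.67 in beta and 3.76 in non-endocrine cells. Endothelial cells and macrophages, which are not known to transcribe Gcg, had a UMI of it in 94.1% and 95.7% of cells of the joint table, so a Gcg UMI alone does not mark a cell outside the alpha class as expressing Gcg. Few cells lay near the class threshold. Between 100 and 200 Gcg UMIs per 10000 were held by 43 joint-table cells, between 200 and 400 by 78, and over 1000 by 1188; library 1 had 5, 5 and 122 such cells.

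**Figure D1:**
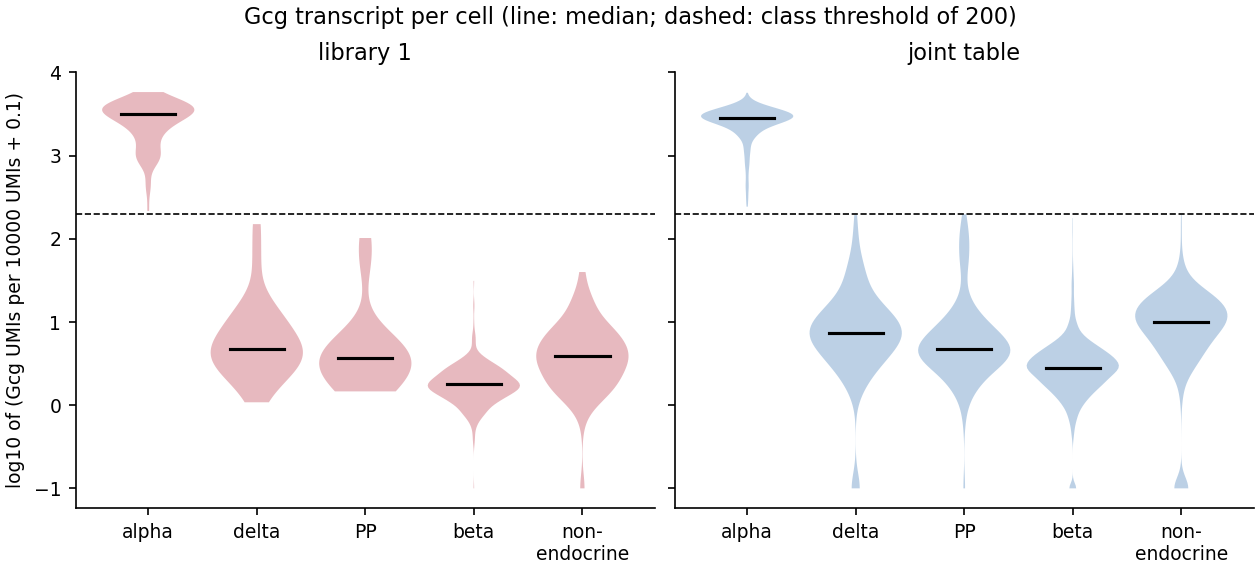
Gcg UMIs per 10000 UMIs of each cell (log10 axis, after adding 0.1) in alpha, delta, PP, beta and non-endocrine cells of library 1 (left) and the joint table (right); black lines are medians over cells and the dashed line is the class threshold of 200. Alpha cells have medians of 3142 and 2813, and the medians of the other classes lie between 1.67 and 9.78.

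Cells past both the Gcg and Ppy thresholds numbered 256 (joint table) and 29 (library 1) and held 167424 and 195005 Gcg CPM. Their Glp1r level was 20.2 CPM in the joint table, where alpha cells had 27.3 CPM.

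Glp1r, the receptor through which GLP-1 raises insulin secretion, is on chromosome 17, from 30901817 to 30940791 on the plus strand. In the joint table its level was 27.3 CPM in alpha, 152 CPM in delta, 34.6 CPM in PP, 304 CPM in beta and 54.7 CPM in non-endocrine cells. The 3 blocks kept beta cells highest, at 297, 304 and 314 CPM, and delta cells next, at 117, 193 and 173 CPM. Alpha cells had 27.3, 16.7 and 35.3 CPM and PP cells 34.7, 8.18 and 52.6 CPM, so the order of these classes was not the same in every block.

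Library 1 held few Glp1r UMIs in any class. It had 0 UMIs in 104 alpha cells, which allows up to 2.08 CPM, 3 UMIs in 25 delta cells (10.1 CPM), 0 in 18 PP cells and 69 in 468 beta cells (3.43 CPM). The counting interval of its delta cells, 2.08 to 29.5 CPM, holds the beta level. Its 107 non-endocrine cells had 0 UMIs, which allows up to 1.98 CPM. The beta-cell level was 88.5 times as high in the joint table as in library 1. Genes were ranked by this ratio after a small constant was added to both levels. Without the constant, a gene absent from library 1 beta cells, such as Gng10 (14.7 CPM in the joint table), has no finite ratio. With it, only Rnasek, Atp6v0c and Nme2 (named after their values were seen) ranked above Glp1r among 7758 genes compared. Of those genes, 98.2% lay within 2-fold between the tables. For beta cells the ratio without the constant, joint table over library 1, was 1.12 for Gcgr, 0.714 for Gipr and 0.978 for Dpp4. The tables were made with different Cell Ranger versions, and they list different gene sets. The part of either, or of the mice, in the Glp1r gap was not tested. On the annotation used here, 2 minus-strand genes, AC174471.1 and AC165951.1, overlap Glp1r, and whether the counting used strand is not given in the sources used here.

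**Figure D2:**
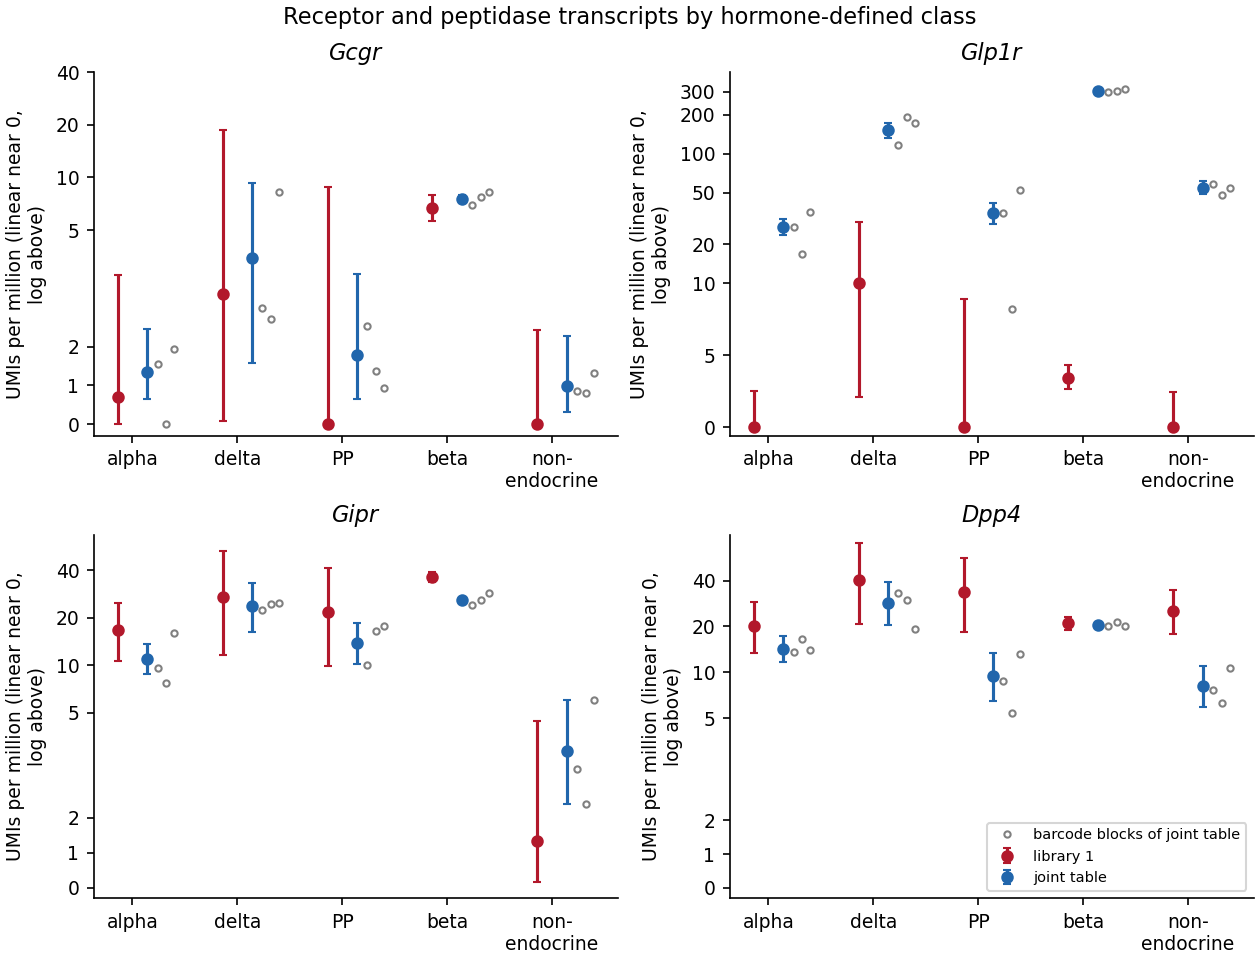
CPM of Gcgr, Glp1r, Gipr and Dpp4 (axis linear near 0 and logarithmic above) in each class; red points are library 1 and blue points the joint table, with exact 95% Poisson intervals for counting error only, and grey circles are the 3 barcode blocks. Glp1r in beta cells stands at 304 CPM in the joint table and 3.43 CPM in library 1, while Gcgr, Gipr and Dpp4 in beta cells differ less than 2-fold between the libraries.

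A Glp1r UMI was found in 17.3% of the alpha, 44.8% of the delta, 24.2% of the PP and 96.4% of the beta cells of the joint table, and in 15.3% of its shallower non-endocrine cells. After each cell was thinned to 2000 UMIs, these shares were 5.96% in alpha, 22.9% in delta, 3.43% in PP, 45.7% in beta and 10.1% in non-endocrine cells. Shallower cells left out of this were 37 alpha, 16 delta, 3 PP, 82 beta and 270 non-endocrine. The thinned shares of alpha and PP cells were below that of non-endocrine cells, and the shares of delta and beta cells were above it. The median beta cell carried 6 Glp1r UMIs, with 2 and 13 at the 10th and 90th percentiles.

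Set against insulin UMIs of the same cells, Glp1r stood highest in delta cells. Per 10000 insulin UMIs, the joint table held 5.48 Glp1r UMIs in alpha cells (95% Poisson interval 4.75 to 6.28) and 16.2 in delta cells (14.1 to 18.5). It held 7.60 in PP cells (6.28 to 9.10), 4.58 in beta cells (4.54 to 4.62) and 6.00 in non-endocrine cells (5.31 to 6.74). Delta cells thus had 3.53 times the beta-cell ratio, against 1.20 times in alpha cells and 1.31 times in non-endocrine cells. The difference was not tested. The ratio in delta cells was 12.0, 20.4 and 20.3 in the 3 blocks, and in beta cells it was 4.45, 4.52 and 4.83. The 362 cells past both the Sst and Ppy thresholds had a ratio of 15.4, close to that of delta cells. The 5 beta-cell markers Mafa, Nkx6-1, Slc2a2, Ucn3 and G6pc2 gave a comparison by another route: their summed level was 22.2% of the beta level in delta cells, where Glp1r was 49.9% of it. In alpha cells those values were 8.56% for the markers and 8.98% for Glp1r, and in non-endocrine cells 13.0% and 17.98%.

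**Figure D3:**
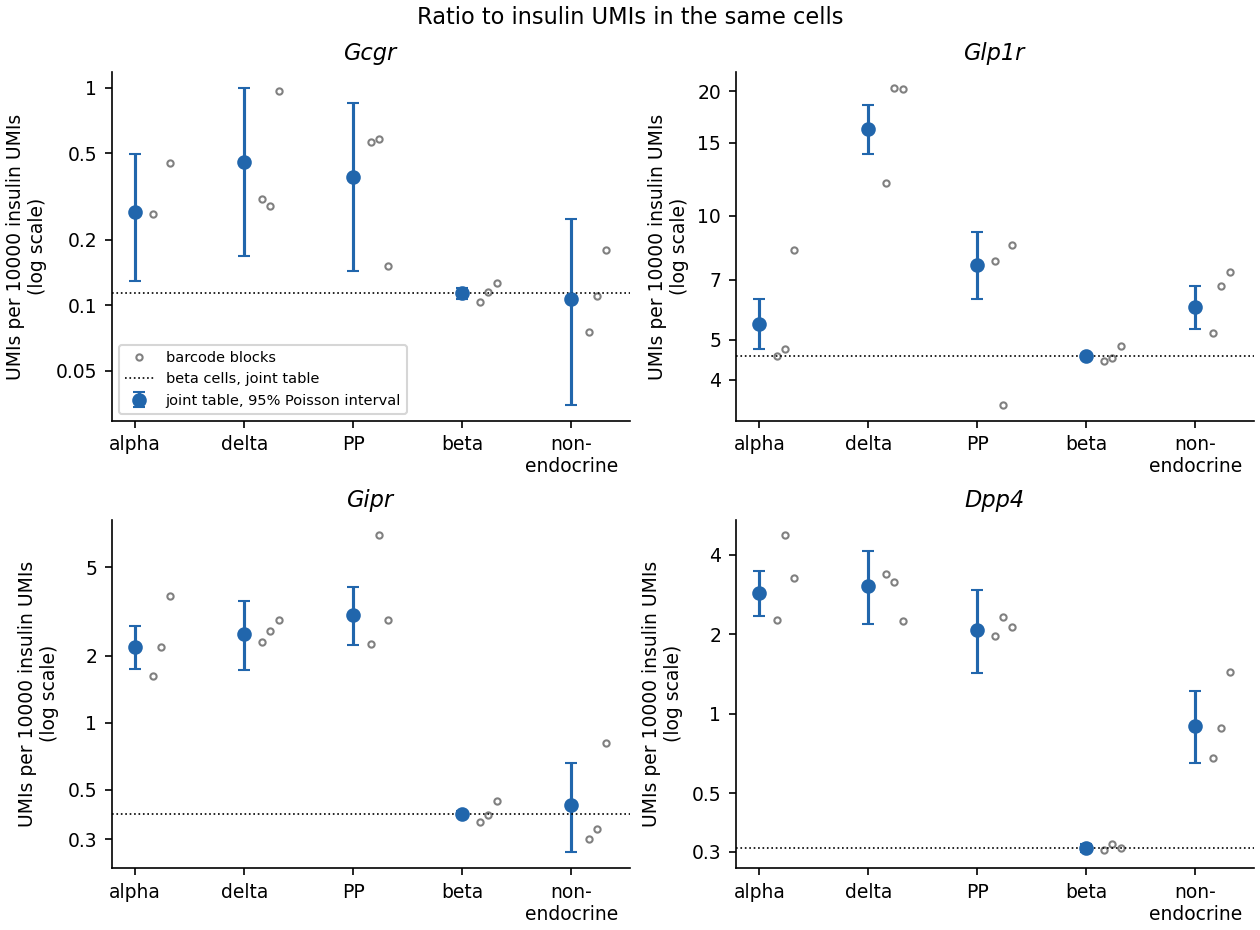
UMIs of each gene per 10000 insulin (Ins1 and Ins2) UMIs of the same cells in the joint table, on logarithmic axes; blue points carry exact 95% Poisson intervals, grey circles are barcode blocks (a block with no UMI is not drawn), and the dotted line is the beta-cell ratio. Glp1r in alpha and non-endocrine cells lies at 5.48 and 6.00, near the beta line at 4.58, while delta cells lie at 16.2.

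Between classes, Glp1r was lower in alpha than in beta cells by limma, with a log2 difference of -2.54 (SE 0.43, adjusted p = 0.00356) and values of -1.46 (library 1) and -3.63 (joint table). The mean level per cell was 0.360 per 10000 UMIs in alpha cells and 3.24 in beta cells of the joint table, against 0 and 0.0374 in library 1. The library 1 value depends on the pseudocount, since its alpha cells had no UMI, and at a pseudocount of 0.5 the difference was -1.30 and did not pass (adjusted p = 0.0676). Without the library block it did not pass either (adjusted p = 0.524). Of 10237 genes tested over all classes, 9.74% differed between alpha and beta cells with 5.01% higher and 4.73% lower in alpha cells. PP cells were also lower than beta cells, by a log2 difference of -2.16 (SE 0.43, adjusted p = 0.0123), where 7.85% of genes differed and 3.07% were lower. This too was lost at a pseudocount of 0.5 (adjusted p = 0.152) and without the block (adjusted p = 0.595). The delta difference of -1.27 (SE 0.43, adjusted p = 0.0695) did not pass, where 17.4% of genes did, 6.92% higher and 10.5% lower in delta cells. On library 1 alone it was -0.53, and there the UMIs of 3 delta cells set it. Without centring the library 1 value changed sign, to 0.39, whereas the joint-table value was -1.13. The mean of the 4 endocrine classes was above non-endocrine cells by 1.12 (SE 0.34, adjusted p = 0.0161), where 57.6% of genes differed and 31.5% were higher in endocrine cells, so a call there is common. Without centring that difference was 0.49 and did not pass (adjusted p = 0.255). The endocrine mean joins classes on both sides of non-endocrine cells, whose mean level was 0.644 per 10000 UMIs in the joint table. Beta (3.24) and delta cells (1.45) were above it, and alpha (0.360) and PP cells (0.394) below it. In library 1, alpha, PP and non-endocrine cells all had 0 Glp1r UMIs. Insulin UMIs moved with Glp1r in alpha and non-endocrine cells, as given above, and the part of RNA from other cells in these differences was not tested. These values are on the scale of log2 of the mean per 10000 UMIs plus 0.05, with each class and library centred on its median gene. Column medians lay above that of beta cells by 0.65 in alpha, 0.91 in delta, 0.41 in PP and 1.14 in non-endocrine cells of library 1, and by 0.62, 0.89, 0.22 and 1.05 in the joint table. The differences are relative to these shifts.

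Gipr, the GIP receptor, is on chromosome 7, from 19156061 to 19166127 on the minus strand. Its level was 11.0 CPM in alpha, 23.6 CPM in delta, 13.9 CPM in PP, 25.9 CPM in beta and 3.90 CPM in non-endocrine cells in the joint table. Library 1 had 16.6 CPM in alpha, 26.9 CPM in delta, 21.6 CPM in PP, 36.2 CPM in beta and 1.32 CPM in non-endocrine cells. By CPM, beta cells were highest and non-endocrine cells lowest in both tables, with alpha cells below PP cells and these below delta cells. The counting intervals of alpha and PP cells, of PP and delta cells, and of delta and beta cells, overlapped in both. Mean levels per cell in library 1 put PP cells above delta cells, at 0.269 and 0.226 per 10000 UMIs.

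Hormone transcripts take a large share of endocrine UMIs, and more in beta than in delta cells. With the 7 hormone genes left out of the total, Gipr stood at 17.1 CPM in alpha, 34.2 CPM in delta, 32.7 CPM in PP, 84.7 CPM in beta and 4.33 CPM in non-endocrine cells in the joint table. A Gipr UMI was found in 7.88% of alpha, 12.2% of delta, 17.4% of PP, 40.6% of beta and 1.39% of non-endocrine cells, and after thinning to 2000 UMIs in 2.47%, 3.74%, 3.004%, 5.59% and 1.18% of the same classes in that order.

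Gipr was above the beta-cell ratio to insulin UMIs in alpha, delta and PP cells. Per 10000 insulin UMIs it was 2.20 in alpha, 2.52 in delta and 3.05 in PP cells, against 0.390 in beta cells of the joint table. These ratios are 5.65, 6.46 and 7.83 times that of beta cells. Because the class rule keeps insulin lower outside the beta class, part of this is set by the rule. Dpp4 ratios were likewise 9.29, 9.87 and 6.72 times that of beta cells in alpha, delta and PP cells. Non-endocrine cells had 0.428, or 1.10 times the beta ratio, from 20 UMIs in 1369 cells.

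By limma Gipr was lower in alpha than in beta cells, with a log2 difference of -1.72 (SE 0.36, adjusted p = 0.0125) that was -1.77 (library 1) and -1.67 (joint table). Delta cells were lower than beta cells by a log2 difference of -1.54 (SE 0.36, adjusted p = 0.0185), which was -0.64 and did not pass without centring (adjusted p = 0.162). With a pseudocount of 0.01 or stricter class thresholds neither call held (adjusted p = 0.0757 and 0.0583 in alpha, 0.0924 and 0.0743 in delta cells). The PP difference of -0.97 did not pass (SE 0.36, adjusted p = 0.148). The mean of the 4 endocrine classes was above non-endocrine cells by 2.43 (SE 0.29, adjusted p = 3.55e-05), at 3.10 (library 1) and 1.76 (joint table). In that comparison 57.6% of genes differed and 31.5% were higher in endocrine cells.

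Gcgr, the glucagon receptor, is on chromosome 11, from 120530699 to 120538986 on the plus strand, with an antisense gene, Gm11789, over it. It had the fewest UMIs of the 5 genes in beta cells of the joint table. Its level was 1.34 CPM in alpha, 4.29 CPM in delta, 1.77 CPM in PP, 7.54 CPM in beta and 0.976 CPM in non-endocrine cells in the joint table, from 10, 6, 6, 1151 and 5 UMIs. In library 1 it was 0.692 CPM in alpha and 3.36 CPM in delta cells, from 1 UMI each, and 6.72 CPM in beta cells from 135 UMIs. The 18 PP and 107 non-endocrine cells of library 1 had 0 UMIs, which allows up to 7.22 and 1.98 CPM.

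Beta cells had the highest Gcgr level in the joint table, and its blocks gave 6.95, 7.77 and 8.28 CPM for them. In library 1 the few UMIs of delta and PP cells do not set an order against beta cells. The counting interval of delta cells in the joint table, 1.58 to 9.34 CPM, includes the beta level, and that of alpha cells, 0.642 to 2.46 CPM, does not. A Gcgr UMI was found in 0.972% of alpha, 2.61% of delta, 2.54% of PP, 14.3% of beta and 0.365% of non-endocrine cells in the joint table. In library 1, whose beta cells had a median of 39329.5 UMIs, 23.5% of beta cells had one, and 0.962% of alpha cells.

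Gcgr did not reach the low-value filter of 0.1 per 10000 UMIs in 2 columns, so 4 of the 5 genes have a place in the filtered fit. With no filter, alpha cells were below beta cells by a limma log2 difference of -1.59 (SE 0.20, adjusted p = 0.00193), delta cells by -1.25 (SE 0.20, adjusted p = 0.00225) and PP cells by -1.45 (SE 0.20, adjusted p = 0.00491). Library 1 had 1 Gcgr UMI in alpha, 1 in delta and 0 in PP cells, so its levels there lie below the pseudocount of 0.05. The counting intervals do not enter this fit. They do not separate delta from beta cells in either library, or PP from beta cells in library 1. Without centring, the delta difference was -0.59 (library 1) and -0.52 (joint table), and the alpha difference was -1.20 (library 1) and -1.02 (joint table). Library values were -1.85 and -1.64 for alpha against beta cells, with library 1 first. These were centred on the median of the genes that passed the filter, unlike the fit with no filter, so they are not its parts. Without the filter, 17.1%, 29.6% and 4.86% of 15741 genes differed in these 3 comparisons. The pseudocount of 0.05 is close to the beta level of 0.0789 per 10000, so both it and the centring bear on the size of these differences.

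Dpp4 was detected in every class. Its level was 14.3 CPM in alpha, 28.6 CPM in delta, 9.46 CPM in PP, 20.5 CPM in beta and 8.20 CPM in non-endocrine cells in the joint table. In library 1 it was 20.1 CPM in alpha, 40.4 CPM in delta, 33.7 CPM in PP, 21.0 CPM in beta and 25.1 CPM in non-endocrine cells. Delta cells were highest on this scale in both tables, but the counting interval in library 1, 20.9 to 70.5 CPM, holds the beta level, as does that in the joint table, 20.4 to 39.0 CPM. This order depended on the hormone genes in the total. Without those 7 genes, joint-table delta cells had 41.5 CPM (29.6 to 56.5) and beta cells 67.2 CPM (64.9 to 69.6). In library 1 the values were then 54.5 CPM in delta, 67.5 CPM in PP and 66.0 CPM in beta cells. An antisense gene, Gm13561, overlaps Dpp4.

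No Dpp4 difference from beta cells passed. The log2 differences were -0.88 in alpha (SE 0.31, adjusted p = 0.1098), -0.14 in delta (adjusted p = 0.805) and -0.28 in PP cells (adjusted p = 0.632). The last 2 changed sign without centring, at 0.76 in delta and 0.03 in PP cells. The alpha difference passed in 4 of 14 tested alternatives, with adjusted p from 0.0219 to 0.607. The mean of the 4 endocrine classes was above non-endocrine cells by 1.40 by limma (SE 0.25, adjusted p = 6.29e-04). In that comparison 57.6% of genes differed and 31.5% were higher in endocrine cells. Without centring the library values of the Dpp4 difference were 0.67 (library 1) and 0.87 (joint table). By CPM, non-endocrine cells of library 1 (25.1) were above alpha (20.1) and beta cells (21.0) and below delta (40.4) and PP cells (33.7). Mean levels per cell in library 1 were 0.191 per 10000 UMIs in alpha, 0.527 in delta, 0.408 in PP, 0.222 in beta and 0.179 in non-endocrine cells.

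Among non-endocrine cells, Dpp4 in library 1 sat in stromal cells, which carry collagen transcripts. Its 41 stromal cells had 35 of the 38 UMIs, at 36.9 CPM and in 39.0% of cells, against 0 UMIs in 27 endothelial cells and 3 in 35 macrophages. In the joint table, 119 stromal cells had 3 UMIs (6.92 CPM). Endothelial cells there had 3.24 CPM, macrophages 9.66 CPM and acinar-type cells 15.5 CPM, so stromal cells did not stand out. Counting intervals of the stromal level, 25.7 to 51.4 CPM in library 1 and 1.43 to 20.2 CPM in the joint table, do not overlap. Stromal cells were deeper in library 1, at a median of 20200 UMIs, than in the joint table, at 2450. Their markers also differed, with Rgs5 at 514 CPM in library 1 and 2394 CPM in the joint table, and Pdgfrb at 47.5 and 397 CPM. Dcn stood at 7164 and 5751 CPM. The cause of the Dpp4 gap was not tested. Dpp4 per 10000 insulin UMIs was 2.87 in alpha, 3.05 in delta, 2.08 in PP, 0.309 in beta and 0.899 in non-endocrine cells in the joint table.

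In endothelial cells, macrophages and stromal cells, Glp1r ran close to the beta-cell ratio to insulin, but in acinar-type cells it was higher. Endothelial cells had 42.5 CPM, macrophages 51.9 CPM and stromal cells 34.6 CPM of Glp1r in the joint table, at 4.95, 5.58 and 4.17 per 10000 insulin UMIs, and beta cells had 4.58. Acinar-type cells had 127 CPM of Glp1r, at 9.31 per 10000 insulin UMIs (7.56 to 11.3), and 12.9 CPM of Gipr. These 238 cells held 98 of the 280 Glp1r UMIs of the joint table's non-endocrine cells. Their insulin level was 135992 CPM, against 85837 CPM in endothelial cells, and their Mafa level was 156 CPM, against 54.3 CPM. No UMI of Gipr or Gcgr was found in 119 stromal cells of the joint table, which at their depth allows a share with a UMI of up to 2.52%. In library 1, with deeper stromal cells, 2 of 41 had a Gipr UMI (4.88%).

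**Figure D4:**
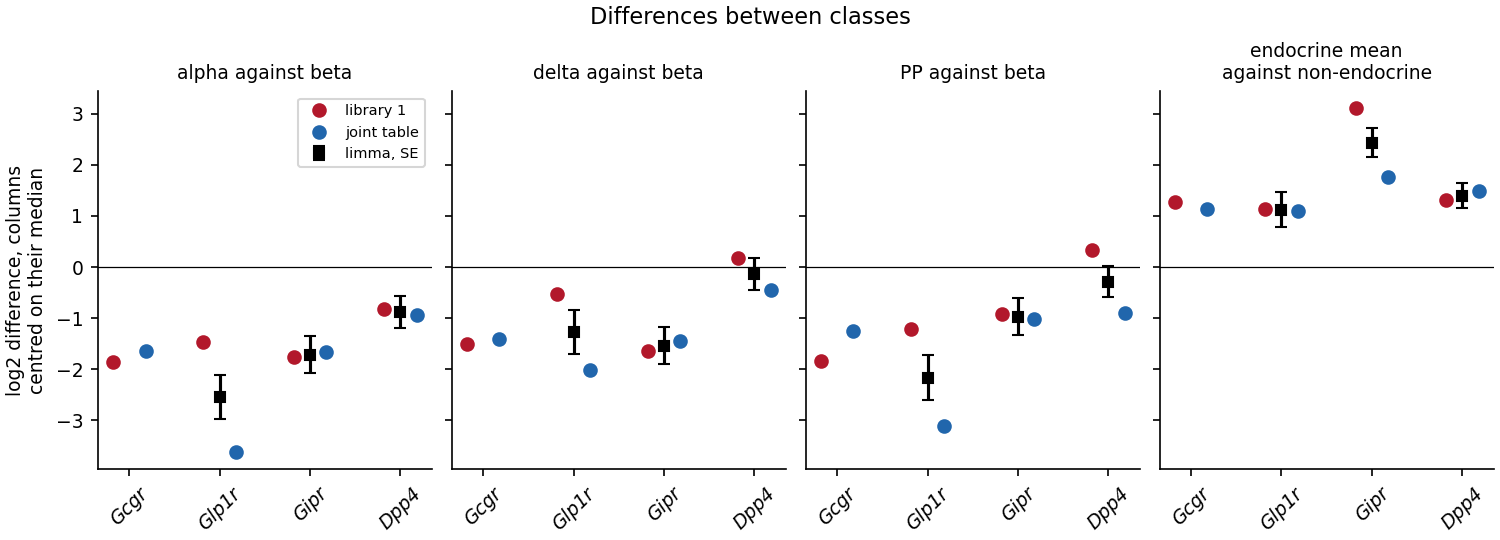
Log2 differences between classes for Gcgr, Glp1r, Gipr and Dpp4; black squares with bars are limma estimates with their SE, and red and blue points are library 1 and the joint table alone. Gcgr has no square because it did not reach the low-value filter; Gipr in alpha against beta cells is -1.77 and -1.67 in the 2 libraries, whereas Glp1r is -1.46 and -3.63.

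No member passed between alpha and delta, alpha and PP, or delta and PP cells, where 7.42%, 1.46% and 4.82% of genes did. The largest of these differences was Glp1r in alpha against delta cells, at -1.27 (SE 0.43, adjusted p = 0.118). It was -0.93 (library 1) and -1.61 (joint table), and 3 of 14 tested alternatives passed.

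Detection of more than 1 receptor was counted in beta cells. All 3 receptors were detected in 464 of 7018 beta cells of the joint table (6.61%) and 18 of 468 of library 1 (3.85%). Gipr was seen in 41.4% of beta cells with a Glp1r UMI and 20.6% of those without. After thinning to 1000 UMIs of genes other than hormones, it was seen in 8.35% of cells with Glp1r and 7.56% of cells without.

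Genes with profiles most like each member were taken by Pearson's r of log2 levels over the 10 class-by-library columns. These points share libraries and depth, and r is only a description. Gcg ran with Klhl13 (r = 0.97) and the alpha-cell factor Irx1 (0.95), followed by Sh3bp4, Upk3a and Samd5. Gcgr ran with Hapln4 (0.99) and Gpr158 (0.99), then Gm17767, Atp2a2 and Cib3. Gipr ran with Svip and Mns1 (0.98 each), then Hepacam2, Dcaf12l1 and Gmcl1, and Dpp4 with Pkdcc and Rec8 (0.96 each), then Rhpn2, Sqle and Akr1c13. For Glp1r the list was Ptar1, Hist2h2aa1, Rnasek, 8030462N17Rik and Asah2 (0.92 to 0.89), and with each library mean removed it was led by Fkbp9 (0.93). Gcgr and Gipr had r = 0.87 with each other.

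Among the 6 genes that process prohormones, 1 was higher and 1 lower in alpha than in beta cells, beside 5.01% higher and 4.73% lower over all genes. Without centring 3 were higher and 1 lower, where 3535 of all 10237 genes were called in either direction. Pcsk1, the convertase that releases GLP-1 in L cells, was lower in alpha cells by a log2 difference of -4.27 (SE 0.40, adjusted p = 1.31e-04), in delta cells by -2.24 and in PP cells by -1.91, each past the threshold. Pcsk2, the convertase that releases glucagon, had a difference of 0.98 in alpha against beta cells and did not pass (adjusted p = 0.377). Pam, which amidates peptide ends, was higher by 1.30 in alpha, 1.04 in delta and 0.69 in PP cells. The median difference of the list in alpha against beta cells was 0.98, against -0.06 over all genes.

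Of 6 related ligands, 1 was tested. Iapp, which encodes the beta-cell peptide amylin, was lower in alpha than in beta cells by -4.55 (SE 0.60). Of 11 related receptors and their partners, 5 were tested, and Ramp1, a receptor partner protein, was the only call in delta against beta cells, at 2.11 (SE 0.30), beside 17.4% of all genes called there. The medians of those 5 were -0.58 in alpha and -0.78 in delta cells against beta cells, with -0.06 and -0.09 over all genes.

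Of 10 peptidases related to Dpp4 or acting on peptides, 6 were tested. Dpp6, a relative of Dpp4 that lacks peptidase activity and partners potassium channels, exceeded its beta-cell level in delta cells by 4.23 (SE 0.28). Dpp10, a relative of the same kind, was higher in alpha cells by 2.17 (SE 0.41) and in delta cells by 1.42 (SE 0.41). The medians were 0.03 in alpha and 0.41 in delta cells against beta cells.

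Of 39 genes of cyclic AMP signalling, 33 were tested. In alpha against beta cells 3 were higher and 4 lower, and in delta against beta cells again 3 were higher and 4 lower, beside 9.74% and 17.4% of all genes in either direction. Without centring, these counts were 10 higher and 0 lower in alpha cells, and 18 higher and 1 lower in delta cells. Over all 10237 genes, 3535 and 5658 were then called in these comparisons, in either direction. Gnas, which encodes the Gs subunit that these receptors use, was higher by 2.42 in alpha, 1.79 in delta and 1.51 in PP cells than in beta cells (SE 0.19 each). Pde4d, a phosphodiesterase that breaks down cyclic AMP, was higher by 2.37, 1.57 and 2.09 in the same classes in that order. Gnai1, an inhibitory subunit, was higher by 1.79 in alpha cells, and its difference in delta cells was -1.15 (adjusted p = 0.0554). Grk5, a receptor kinase, was lower by -1.33 in alpha and -2.01 in delta cells; without centring the alpha difference was -0.69 (adjusted p = 0.0844). List medians were -0.10 in alpha and 0.01 in delta cells against beta cells.

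**Figure D5:**
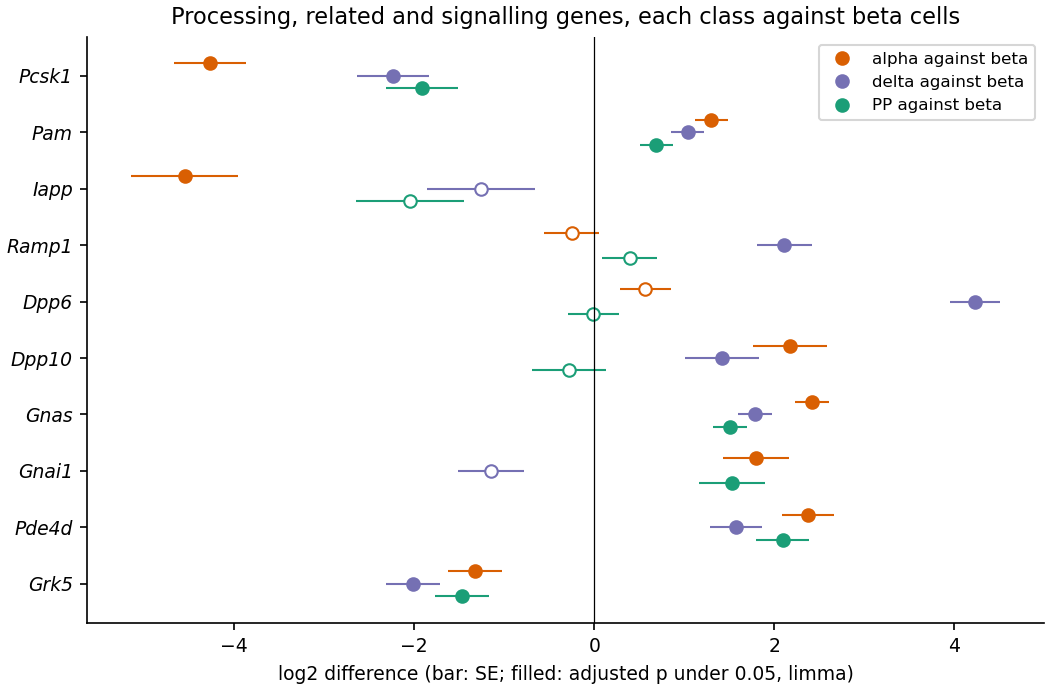
Log2 differences against beta cells in alpha (orange), delta (violet) and PP (green) cells for the named genes of the 5 lists; bars are SE and filled points passed an adjusted p of 0.05 by limma. Pcsk1 lies left of 0 in all 3 classes, Gnas and Pde4d lie right of 0 in all 3, and Dpp6 stands at 4.23 in delta cells.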

How the data were processed

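The authors deposited UMI counts for library 1, made per the submitters' processing notes with Cell Ranger 3.2.0 and cutadapt 2.5 on mm10. The joint table, made per the same notes with Cell Ranger 5.0.0 and Seurat 4.0.0, holds deposited values on a natural log scale: ln of 1 plus the count per 10000 UMIs of the cell. Whole counts were recovered from it for 100% of 28955174 nonzero values (relative tolerance 0.001). Each 10x 3-prime channel received about 10000 cells, per the labels. Total depth was 27474046 UMIs in library 1 (1146 cells) and 196833349 in the joint table.

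Cells with at least 500 genes, 1000 UMIs and at most 20% mitochondrial UMIs were kept; 255 cells of library 1 were over the mitochondrial limit. The highest Scrublet scores (scanpy 1.11.5), at 0.8% per 1000 cells, were removed, which left 853 and 11072 cells. Mean levels per 10000 UMIs plus 0.05, log2, per class and library were fitted in limma 3.58.1 with trend and the library as a block, columns centred on their median, and Benjamini-Hochberg adjustment over 10237 genes with at least 0.1 per 10000 in 2 columns. Each library holds every class, so the library block pairs classes from the same mice. Cells are not replicates. With the block, p-values rest on how class differences varied between 2 libraries, and limma draws on all genes for that spread. The labels do not place replicate 1 by animal, and replicates 2 and 3 were merged. Spread between mice was therefore not measured. The limma and edgeR fits of alpha against beta cells were run on simulated counts with the same gene levels in both libraries. That setting does not cover Glp1r, whose level differed between libraries, or Gcgr, which did not reach the low-value filter. Shares have Clopper-Pearson and levels exact Poisson intervals at 95%, and a count of 0 allows up to 3 counts; these cover counting error only. Alternatives were edgeR 4.0.16, DESeq2 1.42.0 and other thresholds.

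The 5 genes, the gene lists and the class thresholds were chosen with earlier results of these data known. Pathway genes named are at most the 3 with the largest difference per list and contrast among those that passed in alpha or delta against beta cells. Genes like a member are the 5 with the highest r. Gcg between classes was not tested because it defines the alpha class. Positions and coding stretches come from the GENCODE annotation of GRCm38.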

Additional observations from a re-analysis of the deposited data

How the results depend on the processing

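The comparisons of Glp1r, Gipr and Dpp4 with beta cells, and between endocrine and non-endocrine cells, were repeated under the alternatives, and those of Gcgr under 4 of them, including some chosen after seeing the data (dominant hormone, acinar type left out, Glp1r by barcode block, likeness with library means removed). Removing no doublets, keeping deeper cells only and leaving out the acinar type changed no call or direction among those of Glp1r, Gipr and Dpp4, and were not run for Gcgr. Leaving hormone genes out of the total always went without centring. Without the replicate block, Glp1r no longer passed in alpha (-2.54, adjusted p = 0.524) or PP (-2.16) against beta cells or endocrine against non-endocrine cells (1.12); no other such call changed. A pseudocount of 0.5 gave -1.30, -1.17 and 0.47 for those Glp1r comparisons, none passing. Glp1r in endocrine against non-endocrine cells also failed without centring (0.49), without hormone genes and centring (0.93), with DESeq2 (1.65) and with raised class thresholds (0.54). Under the raised thresholds the joint table had 1793 non-endocrine cells, against 1369. Glp1r in delta against beta cells passed with edgeR (-2.21 with TMM, -2.14 with DESeq2 size factors), raised thresholds (-1.44) and dominant hormone (-1.47). Gipr failed with a pseudocount of 0.01 in alpha (-2.09) and delta (-1.85) and with raised thresholds (-1.57 and -1.35), and in delta without centring (-0.64). Gipr in PP against beta cells passed without hormone genes and centring (-1.38), with edgeR (-1.44 and -1.37), DESeq2 (-1.38) and dominant hormone (-1.15). Dpp4 in alpha against beta cells passed without hormone genes and centring (-1.17), with edgeR (-1.25 and -1.20) and dominant hormone (-0.80). The cause of these changes was not tested.

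Dpp4 changed sign in delta against beta cells without centring (0.76), at a pseudocount of 0.5 (0.058) and with no filter (0.071), and in PP without centring (0.032). In delta against PP cells, Gipr did so without centring (0.015), and Dpp4 with raised thresholds (-0.013) and deeper cells (-0.055). The untested means of the library differences of Gcgr were -1.75 in alpha, -1.45 in delta and -1.54 in PP against beta cells and 1.20 in endocrine against non-endocrine cells. Without hormone genes and centring they were -2.10 in alpha, -2.15 in PP and 0.95 in endocrine against non-endocrine cells, and with no filter -1.59 in alpha and -1.25 in delta. Leaving out a library, Dpp4 ranged from -0.45 to 0.17 in delta and from -0.91 to 0.34 in PP against beta cells, and from -0.17 to 0.46 in delta against PP cells.

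Genes called in alpha against beta cells numbered 997, and 3535 without centring, 2689 with no filter, 2260 and 2234 with edgeR, 1960 with DESeq2 and 1632 with dominant hormone. In delta against beta cells 1783 became 5658 without centring, 4659 with no filter and 1062 at a pseudocount of 0.01. In PP against beta cells 804 became 1402 without centring, 1358 without hormone genes and centring, 1506 and 1491 with edgeR and 1444 with DESeq2. In alpha against PP cells 149 became 382 without centring, 250 with DESeq2 and 97 without the block. In delta against PP cells 493 became 2968 without centring, 2434 with no filter, 940 at a pseudocount of 0.5, 191 and 187 with edgeR, 327 without the block and 307 with dominant hormone. Endocrine against non-endocrine calls went to 9355 with no filter, against 5899. Thinning moved 31 of the shares of cells, and the blocks moved 10, 14 and 12 of the 25 joint-table levels beyond their counting interval. Few UMIs limit Gcgr, and few cells limit library 1's delta and PP classes, which hold 25 and 18.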
